A study of Homo sapiens with 8 samples.

Results

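The no-go decay and ribosome collision factors are the genes PELO, HBS1L, ZNF598, ASCC2, ASCC3, LTN1, NEMF, XRN1 and GIGYF2. They were taken by symbol, and all 9 were found among the 58735 genes of the transcript tables. RNA came from BEAS-2B, an immortalized line of human bronchial epithelial cells, kept at an air-liquid interface. The cells received 1 ppm formaldehyde (FA) or clean air (CA) for 2 h and recovered for 6 h. RNA depleted of ribosomal RNA was sequenced as input (IN) and after immunoprecipitation with an antibody against 8-oxo-7,8-dihydroguanosine (IP), the oxidized form of guanosine known as 8-oxoG. This gives 4 groups of 2 libraries each: CA_IN (clean air, before the pull-down), FA_IN (formaldehyde, before the pull-down), CA_IP (clean air, pulled down) and FA_IP (formaldehyde, pulled down). All groups come from a single line, and the deposited names number the replicates 1 and 3, called replicates 1 and 2 here.

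A ribosome that stalls on a damaged message is met by the ribosome behind it, and the collided pair is the signal that this pathway reads. ZNF598 is the ubiquitin ligase that marks collided ribosomes, and GIGYF2 represses further initiation on the same message. ASCC3 is the helicase and ASCC2 the ubiquitin-binding subunit of the complex that splits them, while PELO and its GTPase partner HBS1L open ribosomes that are stuck at the end of a message. NEMF and the ubiquitin ligase LTN1 then act on the large subunit that still holds an unfinished protein, and XRN1 degrades the message from its 5′ end. Oxidized guanine in a message is known to stall ribosomes, so the design asks of these genes whether their own RNA changed with formaldehyde and whether it was recovered more or less than other RNA by the antibody.

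The libraries held 26.2 to 45.1 M expected counts in input and 16.9 to 23.7 M after pull-down. The label was checked against markers. The epithelial keratins KRT5, KRT8, KRT17 and KRT18 had at least 10708 expected counts in every library, and so did VIM and FN1, which mesenchymal cells also express. The other epithelial genes were lower, with at least 5530 counts for ITGB4, 2282 for CDH1, 892 for EPCAM and 610 for TP63. The other mesenchymal genes were lower too, with 723 to 1906 counts for CDH2, 159 to 361 for COL1A1 and 9 to 26 for COL1A2. Of the leukocyte genes, PTPRC and CD3E had at most 2 counts and LYZ at most 8.83, while CD68 had 74.1 to 379. The endothelial VWF, CDH5 and PECAM1 had at most 7, 15 and 26 counts. A small cytoplasmic RNA, RN7SL1, took 18.03 to 19.84% of TPM (a level per length, scaled to a fixed total in each library) in input and 28.9 to 31.6% after pull-down, so TPM values are compared only within input. Changes are given on CPM, counts scaled to a fixed library total with TMM factors, a scaling that aligns the bulk of genes between libraries. A change after pull-down is therefore relative to the other genes, and a change of all RNA alike would not be seen.

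In the human genome (GRCh38, GENCODE 44) the 9 genes are protein coding and lie on 8 chromosomes. ASCC3 (chr6:100508194-100881372) and HBS1L (chr6:134960378-135103056) share chromosome 6, both on the minus strand. The others on the minus strand are ZNF598 (chr16:1997654-2009821), ASCC2 (chr22:29788609-29838304), LTN1 (chr21:28928144-28992956), NEMF (chr14:49782083-49852821) and XRN1 (chr3:142306607-142448062). PELO (chr5:52787916-52804044) and GIGYF2 (chr2:232697299-232860605) lie on the plus strand. PELO lies within the span of ITGA1 on the same strand and overlaps an antisense RNA. NEMF overlaps KLHDC2 on the other strand, and GIGYF2 overlaps KCNJ13 and SNORC. The counting did not use strand, so reads from such shared stretches cannot be told apart with certainty.

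Because the antibody recognizes a form of guanine, the guanines of the members' messages are part of the data. The sequences here are the first 120 bases of the longest coding exon of 1 isoform per member, with guanines in capitals. It is the isoform with the most counts among those that GENCODE 44 types as protein coding. For ZNF598 that isoform, ENST00000562103, held 14.7% of the gene's counts. Shown are the 5 members whose pull-down values are called in one fit of the data further on. The stretches lie at chr5:52800395-52800514 (plus strand, PELO), chr16:2000137-2000256 (minus, ZNF598), chr22:29802089-29802208 (minus, ASCC2), chr14:49800577-49800696 (minus, NEMF) and chr3:142311694-142311813 (minus, XRN1).
PELO: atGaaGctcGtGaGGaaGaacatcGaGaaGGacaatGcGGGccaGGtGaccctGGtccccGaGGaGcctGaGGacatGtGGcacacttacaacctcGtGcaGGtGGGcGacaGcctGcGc
ZNF598: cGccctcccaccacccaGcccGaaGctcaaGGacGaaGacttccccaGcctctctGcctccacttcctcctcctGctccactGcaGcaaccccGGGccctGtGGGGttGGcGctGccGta
ASCC2: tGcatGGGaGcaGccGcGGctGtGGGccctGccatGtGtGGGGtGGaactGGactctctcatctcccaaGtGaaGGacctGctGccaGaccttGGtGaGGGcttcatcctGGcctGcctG
NEMF: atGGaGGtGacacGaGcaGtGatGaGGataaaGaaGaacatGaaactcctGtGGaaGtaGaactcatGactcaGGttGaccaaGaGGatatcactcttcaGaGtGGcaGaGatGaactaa
XRN1: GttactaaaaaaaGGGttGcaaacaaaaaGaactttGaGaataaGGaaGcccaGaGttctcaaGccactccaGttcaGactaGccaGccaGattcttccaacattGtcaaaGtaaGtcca
The stretches of PELO and ASCC2 hold 41 guanines each, that of NEMF 34, that of ZNF598 26 and that of XRN1 22. A stretch is an example and not a measure of its message. Over the whole messages, weighted by the counts of their isoforms, guanine made up 27.3% of ASCC2, 23.0% of PELO, 21.2% of NEMF and 19.6% of XRN1. For ZNF598 it was 32.3%, from isoforms with 52.2% of its counts, because its most abundant isoform has no sequence of the same identifier in GENCODE 44. Among the matched isoforms a retained-intron form, ENST00000565396, held the most, 16.7% of the gene's counts. Forms typed as protein coding held 14.7%, so the 32.3% includes intron sequence.

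By TPM summed over isoforms, HBS1L was the highest of the 9 messages. Its input level was 34.6 ± 3.96 TPM (SD, n = 4 input libraries), above 94.4% of the genes tested. Short isoforms weigh heavily in this sum. Over all 8 libraries ENST00000367820, of 638 bases, had a mean of 12.2 TPM with 6.64% of the gene's counts. The leading isoform ENST00000367826, of 2703 bases, had 14.6 TPM with 47.6%. The helicase ASCC3 followed with 11.4 ± 1.68 TPM, NEMF with 8.56 ± 0.950 TPM, GIGYF2 with 6.92 ± 0.970 TPM and ASCC2 with 5.57 ± 0.340 TPM. LTN1 (4.14 ± 0.287 TPM), ZNF598 (3.67 ± 0.270 TPM), XRN1 (3.39 ± 0.526 TPM) and PELO (3.39 ± 0.782 TPM) formed the low end, where the ranges of the libraries overlapped. ASCC3 (9.34 to 13.4 TPM) and NEMF (7.24 to 9.35 TPM) also touched, and NEMF overlapped with GIGYF2 (6.11 to 8.32 TPM). All 9 stood above the median of 1.65 TPM of the genes tested. Partners within a complex were unequal in TPM summed over isoforms: HBS1L exceeded PELO and ASCC3 exceeded ASCC2 in each of the 4 input libraries.

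The first comparison, FA_IN with CA_IN, asks whether formaldehyde changed the members' abundance. None of the 9 passed. In edgeR's quasi-likelihood test with Benjamini-Hochberg adjustment over 18242 genes, 0 members had an adjusted p under 0.05, 0 had an unadjusted p under 0.05 (3.35% of all genes had), and DESeq2 also called 0. The background is as sparse, with 1 gene called, 0.00548% of those tested. The members' median log2 fold change was -0.04 against 0.02 over all genes tested, with 3 members above 0 and 6 below. With the replicate number as a block 1.41% of all genes were called, and 0 members.

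GIGYF2, the repressor of initiation, had the widest difference of the 9. It had 68.4 and 55.0 CPM in CA_IN and 49.3 and 47.1 CPM in FA_IN. Both formaldehyde libraries lay below both clean air libraries, and the 2 clean air libraries were themselves further apart than the formaldehyde libraries. The fitted log2 fold change was -0.36 with a 95% interval from -0.72 to 0.01 (edgeR quasi-likelihood test, adjusted p = 0.945), and it ran from -0.51 to -0.19 as single libraries were left out. ZNF598 had 23.9 and 22.2 CPM in CA_IN and 24.3 and 20.6 CPM in FA_IN. Its groups overlapped, with a log2 fold change of -0.04.

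The ribosome-splitting factors did not share a direction. PELO had 48.6 and 36.1 CPM in CA_IN and 40.1 and 31.6 CPM in FA_IN. Its replicates differed more than its groups, and the log2 fold change of -0.24 had a 95% interval from -0.71 to 0.23. It ran from -0.45 to -0.01 as single libraries were left out. HBS1L had 149 and 157 CPM in CA_IN and 149 and 168 CPM in FA_IN, a log2 fold change of 0.05 with an interval from -0.15 to 0.25. The groups of HBS1L overlapped.

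ASCC2 had 30.9 and 30.3 CPM in CA_IN and 31.6 and 32.6 CPM in FA_IN. Both formaldehyde libraries were higher, by a margin that gave a log2 fold change of 0.07 (95% interval -0.16 to 0.30). ASCC3 had 152 and 172 CPM in CA_IN and 155 and 190 CPM in FA_IN. Its groups overlapped and its log2 fold change was 0.09.

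The factors that act on the stalled large subunit had values below 0, without passing the test. LTN1 had 73.4 and 74.8 CPM in CA_IN and 65.2 and 67.5 CPM in FA_IN, a log2 fold change of -0.16 (95% interval -0.37 to 0.05). NEMF had 54.3 and 53.2 CPM in CA_IN and 48.8 and 52.6 CPM in FA_IN, a log2 fold change of -0.08. In both genes the groups did not overlap. The exonuclease XRN1 had 42.2 and 46.1 CPM in CA_IN and 40.4 and 46.2 CPM in FA_IN, overlapping groups with a log2 fold change of -0.03.

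Groups that did not overlap were found for 4 of the 9 members, ASCC2 (higher) and LTN1, NEMF and GIGYF2 (lower). With 2 libraries a group this is frequent: 33.9% of all genes tested had groups apart in this comparison. The 95% intervals of the 9 members together reach from -0.72 (GIGYF2) to 0.36 (ASCC3) on the log2 scale.

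**Figure D1:**
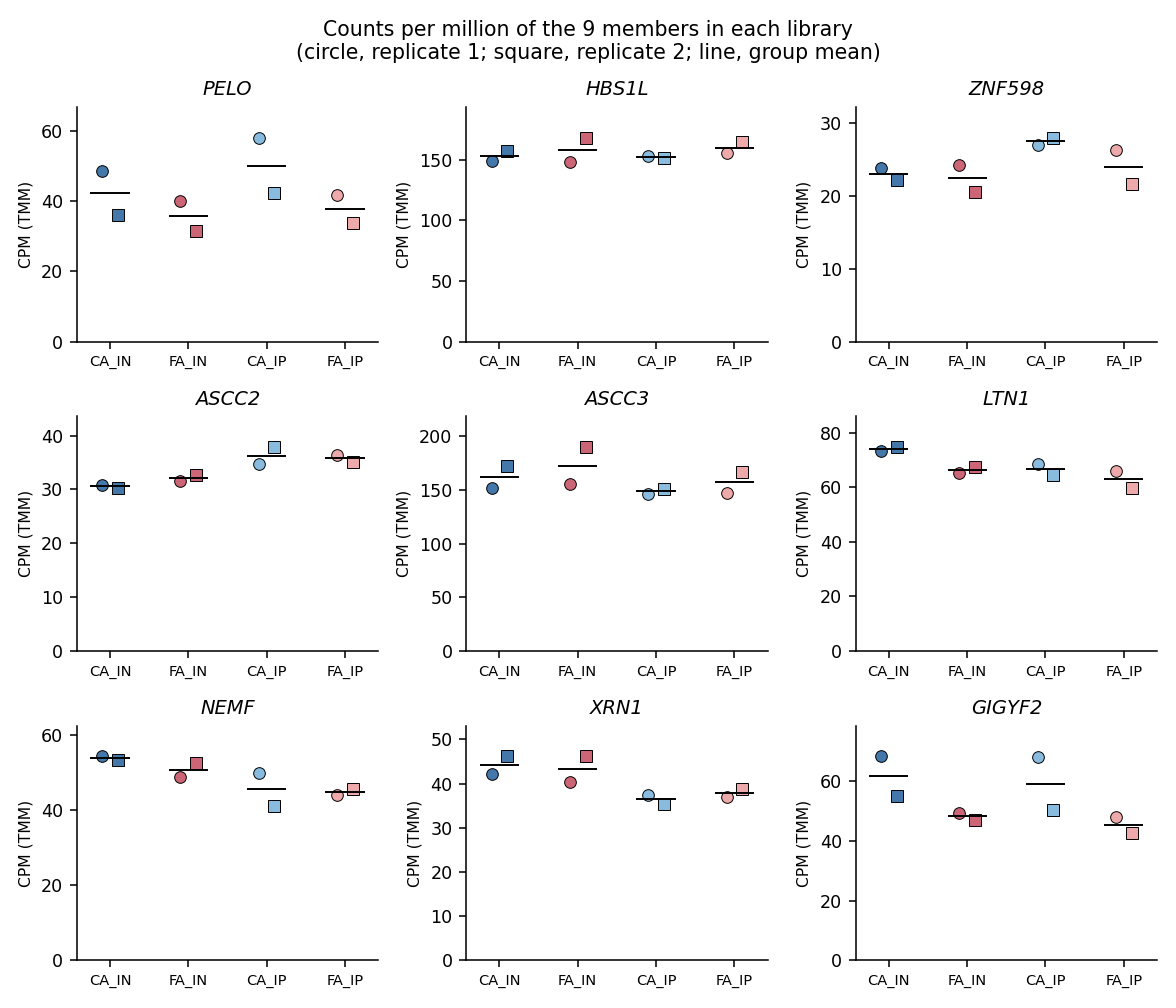
CPM (counts scaled to library totals with TMM factors, vertical axes from 0) of the 9 members in each library, by group (CA, clean air; FA, formaldehyde; IN, input; IP, pull-down); circles are replicate 1, squares replicate 2 and lines group means. In PELO and GIGYF2 the circle lies above the square in all 4 groups, and ASCC2 lies higher in the 4 pull-down libraries than in the 4 input libraries.

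The second comparison sets CA_IP beside CA_IN and asks which messages the antibody recovered more or less than the bulk of genes without formaldehyde. ZNF598, ASCC2 and PELO lay on the side of recovery, between 0.24 and 0.26 on the log2 scale. XRN1 and NEMF lay furthest on the other side, at -0.27 and -0.24. With the 8 libraries as independent samples, edgeR's quasi-likelihood test called 0 of the 9 at an adjusted p under 0.05, against 1.91% of all genes, 27 higher and 322 lower. With library size in place of TMM the calls over all genes were 821 higher and 336 lower, so their balance depends on the scaling. At an unadjusted p under 0.05, as for 12.6% of all genes, there were 2 members, ASCC2 (adjusted p = 0.364) and XRN1 (adjusted p = 0.343). DESeq2 on all 8 libraries called 0.

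The study split the RNA of each treatment into input and pull-down. Libraries of the same number were taken as fractions of one RNA pool, a pairing inferred from the deposited names. With the RNA pool as a block 5 of the 9 members were called in clean air. Higher after pull-down were PELO (log2 fold change 0.24 ± 0.07 SE, adjusted p = 0.0221), ZNF598 (0.25 ± 0.08, adjusted p = 0.0314) and ASCC2 (0.24 ± 0.08, adjusted p = 0.0321). Lower were XRN1 (-0.27 ± 0.08, adjusted p = 0.0171) and NEMF (-0.24 ± 0.08, adjusted p = 0.0310), all in edgeR's quasi-likelihood test with Benjamini-Hochberg adjustment over all genes. The same fit called 17.4% of all genes tested, 2112 higher and 1067 lower, so that calls were common in it. With a clean air pool left out, the other is assumed to vary like the formaldehyde pools, and calls over all genes fell as well. Without replicate 1 of clean air the blocked fit called 2 members, NEMF and XRN1, against 13.3% of all genes. PELO, ZNF598 and ASCC2 were then at 0.22, 0.34 and 0.32 with SEs of 0.12 to 0.13. Without replicate 2 it called 0 members against 4.29% of all genes, and the 5 were at 0.14 to 0.23 or at -0.15 and -0.20. With one additive term for the replicate number in place of the pool, 0 members were called against 10.6% of all genes, and their smallest adjusted p was 0.0657, for XRN1.

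The values in each pool show what the block removes. PELO had 58.1 and 42.2 CPM in CA_IP, so that its 2 clean air pools differed in both fractions while pull-down over input was 0.26 and 0.22 on the log2 scale. ZNF598 had 27.1 and 28.03 CPM in CA_IP, with ratios of 0.18 and 0.34. ASCC2 had 34.7 and 37.9 CPM in CA_IP, with ratios of 0.17 and 0.32. For these 3 genes both pools gave a ratio above 0, and the CA_IP libraries of ZNF598 and ASCC2 lay above both CA_IN libraries.

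XRN1 had 37.5 and 35.5 CPM in CA_IP, with ratios of -0.17 and -0.38. NEMF had 49.9 and 41.1 CPM, with ratios of -0.12 and -0.37. Both pools were below 0 for each gene, replicate 2 further than replicate 1. Its partner LTN1 had 68.6 and 64.7 CPM in CA_IP and a log2 fold change of -0.15 (95% interval -0.36 to 0.05).

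The remaining members lay nearer to 0. ASCC3 had 146 and 151 CPM in CA_IP (log2 fold change -0.12), opposite in sign to its partner ASCC2. GIGYF2 had 68.3 and 50.3 CPM (log2 fold change -0.06), and HBS1L had 153 and 151 CPM (log2 fold change -0.01). PELO, whose protein HBS1L accompanies, was at 0.24, and the difference within such a pair was not tested. The members' median was -0.06 against 0.02 over all genes. In 6 of the 9 the groups did not overlap, ZNF598 and ASCC2 above and ASCC3, LTN1, NEMF and XRN1 below, where 41% of all genes were apart.

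**Figure D2:**
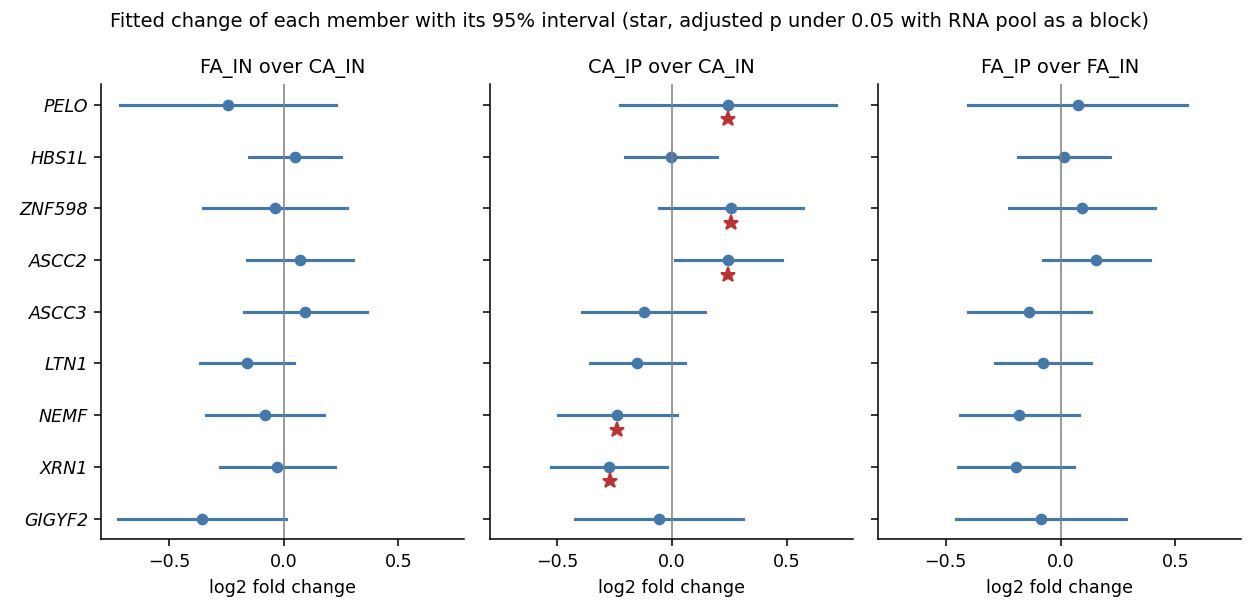
Log2 fold change of each member (points) with its 95% interval (lines) from edgeR on 8 libraries in 3 comparisons; a red star marks an adjusted p under 0.05 with the RNA pool as a block, a fit made for the pull-down comparisons. All 9 intervals cross 0 in the input comparison, and 5 members carry a star in clean air and 0 after formaldehyde.

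The third comparison repeats the pull-down after formaldehyde, FA_IP with FA_IN. The FA_IN libraries also served in the first comparison and CA_IN in the first and second, so the comparisons are not independent. In edgeR's quasi-likelihood test 0 of the 9 members were called, 0 had an unadjusted p under 0.05 and DESeq2 called 0, against 1.5% of all genes. With the RNA pool as a block 0 members were called, against 10.1% of all genes, and the smallest adjusted p of a member was 0.142, for XRN1.

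ASCC2 again had the largest positive value, with 36.4 and 35.1 CPM in FA_IP and a log2 fold change of 0.15 (95% interval -0.08 to 0.39). ZNF598 had 26.3 and 21.7 CPM in FA_IP and PELO 41.9 and 33.6 CPM. Their log2 fold changes were 0.09 and 0.07, and both genes had overlapping groups. Within the pools their ratios of pull-down to input were all above 0, at 0.11 and 0.07 for ZNF598 and 0.06 and 0.09 for PELO. HBS1L, with 155 and 165 CPM, had a log2 fold change of 0.01.

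XRN1 had 36.9 and 38.7 CPM in FA_IP and a log2 fold change of -0.19 (95% interval -0.45 to 0.06). NEMF had 43.97 and 45.5 CPM and a log2 fold change of -0.18 (95% interval -0.44 to 0.08). For both, the pull-down libraries lay below the input libraries and both pools gave ratios below 0, from -0.13 to -0.25 in XRN1 and from -0.15 to -0.21 in NEMF. ASCC3 (147 and 167 CPM, log2 fold change -0.14), GIGYF2 (48.2 and 42.8 CPM, -0.08) and LTN1 (66.1 and 59.8 CPM, -0.08) had overlapping groups. Within the pools the ratios of ASCC3 (-0.08 and -0.19) and GIGYF2 (-0.03 and -0.14) were below 0, and those of LTN1 were on both sides (0.02 and -0.17). The groups were apart for 3 of 9 members, ASCC2, NEMF and XRN1, where 37.4% of all genes were apart. The members' median was -0.08 against 0.00 over all genes.

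Whether the pull-down differed between formaldehyde and clean air was tested as an interaction. In edgeR's quasi-likelihood test it called 0 members, with 0 at an unadjusted p under 0.05, 0 by DESeq2, and 0% of all genes. With the RNA pool as a block it called 0.137% of all genes and 0 members. The widest interaction values were -0.17 for PELO (95% interval -0.84 to 0.50) and -0.16 for ZNF598 (95% interval -0.61 to 0.29). The 5 calls in clean air and 0 after formaldehyde therefore do not show that the members' recovery differed between the treatments.

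The scaling sets where 0 lies in the pull-down comparisons. With library size in place of TMM the median of all genes moved to 0.16 in clean air and 0.17 after formaldehyde. ASCC3, HBS1L and GIGYF2 then turned to values above 0 in clean air (0.02, 0.14 and 0.09), and ASCC3, LTN1 and GIGYF2 did so after formaldehyde (0.03, 0.10 and 0.09). Relative to the shifted median they stayed below it. Of the 5 members named for clean air none changed sign with the scaling.

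Across all genes, medians of pull-down over input were higher where messages held more guanine. The 18178 genes tested that have a sequence were divided by guanine share into 10 groups of nearly equal size, group 1 the lowest. In clean air the median log2 fold change went from -0.20 in group 1 (up to 20.2% guanine) to 0.32 in group 10 (above 30.6%). After formaldehyde it went from -0.14 to 0.21. The groups also differed in length, with a median of 3149 bases in group 1 and 1984 in group 10. GC content, the share of guanine and cytosine together, was not compared between the groups. Among the members it ran from 37.1% in LTN1 and 37.2% in XRN1 to 56.6% in ASCC2 and 66.0% in ZNF598. The parts of guanine share, GC content and length were not separated.

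XRN1 (19.6%, log2 fold change -0.27 in clean air) and LTN1 (19.6%, -0.15) lay in group 1, whose median was -0.20. NEMF (21.2%, -0.24) and ASCC3 (21.0%, -0.12) lay in group 2, whose median was -0.12. All 9 members were longer than the median of 2535 bases over the genes tested, from 2649 in HBS1L to 8954 in XRN1, and PELO (4341) was longer than NEMF (3744). ASCC2 (27.3%, 0.25) lay in group 7, whose median was 0.12. ZNF598 lay in group 10 by the 52.2% of its counts with a sequence, with 0.26 beside a median of 0.32. Those counts include retained-intron forms, so its place among the groups is uncertain.

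Of the 9 members PELO lay furthest from the median of its group in clean air. With 23.0% guanine it lay in group 4, whose median was -0.03, and its log2 fold change was 0.24. HBS1L, with 22.9% guanine in the same group, had -0.01. PELO and HBS1L differed in GC content, at 45.5% and 40.7%, and GIGYF2 had 46.2%. GIGYF2 (25.2%, -0.06) lay below the median of 0.06 of group 6. After formaldehyde PELO had 0.07 beside a group median of -0.03. This is a description over messages of the same libraries. The part of guanine share, GC content or length in the members' values was not tested.

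**Figure D3:**
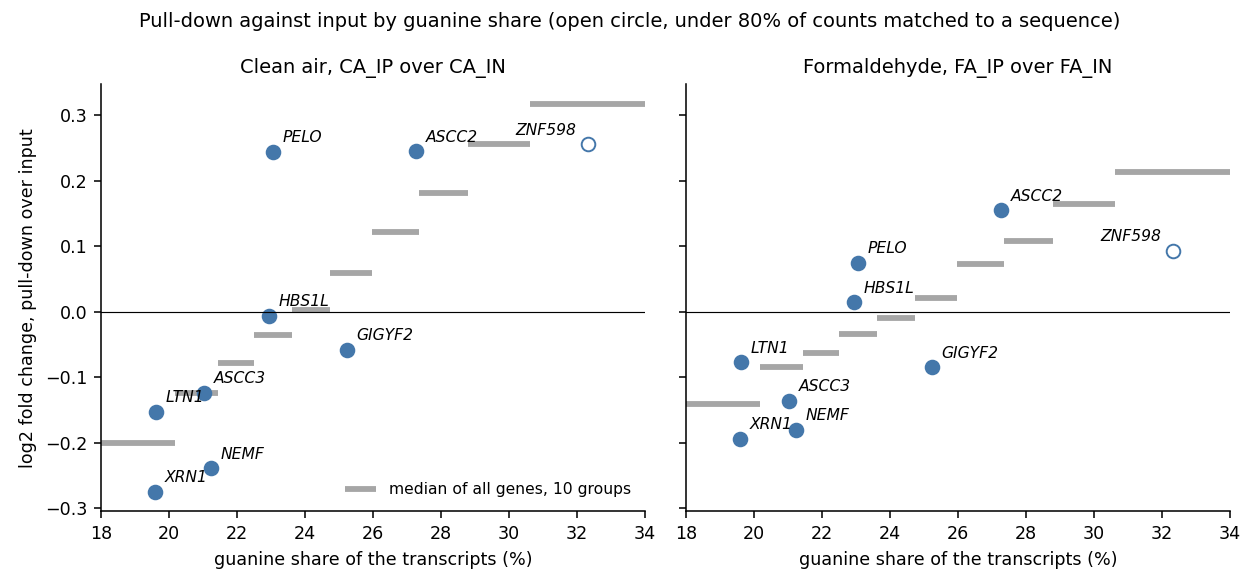
Log2 fold change of pull-down over input (vertical) against the guanine share of each member's messages in percent (horizontal), in clean air (left) and after formaldehyde (right); grey bars are medians of all genes in 10 groups of guanine share, clipped at 18 and 34%, and the open circle is ZNF598, with 52.2% of its counts matched to a sequence. The grey bars climb from -0.20 to 0.32 in clean air, and PELO stands above its bar at 0.24.

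The tables hold 139 isoforms of the members, of which 75 had enough counts for a test. Estimates for isoforms are less certain than for genes, since reads in shared exons are divided between isoforms: the common coefficient of variation was 0.551 over transcripts and 0.138 over genes. Of the 75, 18 had no count in one library and at least 10 in the other library of the same group, and 8 of these 18 belong to GIGYF2, which has 46 isoforms in the tables. In edgeR's quasi-likelihood test with Benjamini-Hochberg adjustment over 67873 transcripts, 0 were called in any comparison. The background was 0% of transcripts for formaldehyde in input, 0.242% for pull-down in clean air, 0.144% after formaldehyde and 0% for the interaction. At an unadjusted p under 0.05 there were 4, 5, 3 and 2 isoforms of members, where 2.8, 7.06, 5.95 and 2.92% of all transcripts were. DESeq2 called 0, 1, 1 and 0 of the 75, against 0.166, 1.97, 1.4 and 0.318% of all transcripts, so that 1 of 75 is near its background.

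One isoform carried most of the counts in PELO (ENST00000274311, 99.2%), LTN1 (ENST00000361371, 91.3%), ASCC3 (ENST00000369162, 74.3%), ASCC2 (ENST00000307790, 60.3%) and XRN1 (ENST00000264951, 50.3%). In HBS1L (ENST00000367826, 47.6%), ZNF598 (ENST00000563630, 47.8%), NEMF (ENST00000555970, 42.9%) and GIGYF2 (ENST00000373563, 30.98%) the leading isoform held under 50%. In the other 8 members the isoform leading by counts also led by TPM, while in XRN1 that was ENST00000392981, with 33.3% of the counts.

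The isoform of ASCC2 named ENST00000542393 is on a list of transcripts that the study chose on these samples, so its direction here is not independent evidence. In CA_IN its expected counts were 28.4 and 43.6, and in FA_IN they were 0 and 0. After pull-down they were 36.3 and 4.63 for clean air (CA_IP) and 42.2 and 22.3 for formaldehyde (FA_IP). Both formaldehyde input libraries were at 0, where the other 6 libraries had counts. Against a floor of 3 counts per library, FA_IP was 15.4-fold higher than FA_IN, and 8.67-fold higher without FA_IP replicate 1. CA_IN was 8.71-fold higher than FA_IN by the same floor, and 6.16-fold higher without CA_IN replicate 2. The floor allows for counting error in the libraries at 0 only. The higher counts entered as estimated, and the error of dividing shared reads between isoforms is not included.

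The isoform was 2.38% of the counts of ASCC2, and the gene as a whole did not follow it. ASCC2 summed over its isoforms had 759 and 1129 expected counts in the FA_IN libraries where the isoform was at 0. For FA_IP with FA_IN the isoform had an adjusted p of 0.334 in edgeR's quasi-likelihood test. It was called by DESeq2 (adjusted p = 0.00354) and by edgeR without a filter on low counts (adjusted p = 0.0167).

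How few bases set this isoform apart can be read from its sequence. It lacks an exon of 159 bases (chr22:29825622-29825780) that the leading isoform ENST00000307790 has, and its exon 4 starts 69 bases further in than the matching exon of that isoform. The junction of its exons 3 and 4 (chr22:29825087-29825257 and chr22:29822335-29822395, minus strand, coding on both sides) is in no other of the 22 ASCC2 isoforms that were compared. It is shown with 40 bases on each side, exon 3 in lower case and exon 4 in capitals.
ENST00000542393: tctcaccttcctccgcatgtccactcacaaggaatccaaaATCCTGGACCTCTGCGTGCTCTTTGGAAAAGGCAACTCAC
Of the 2520 stretches of 75 bases in the isoform, 98 (3.89%) occur in no other ASCC2 isoform, in 3 places that include this junction. All other stretches are shared, and read pairs that lie wholly in them are assigned by estimate. The study's reads were paired, and what the second read of a pair adds was not counted.

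**Figure D4:**
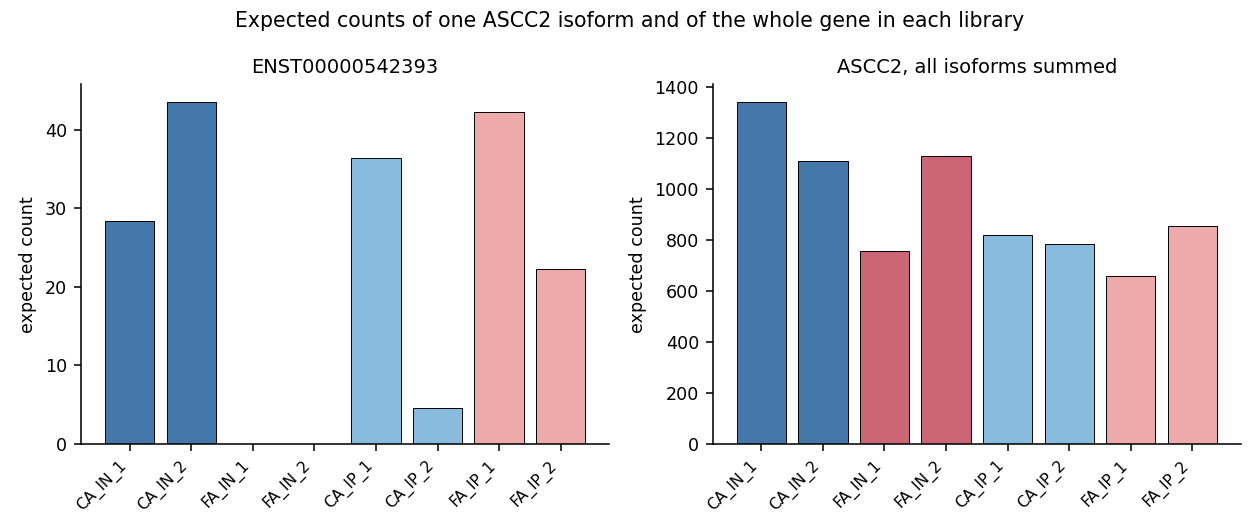
Expected counts (vertical axes from 0) of the isoform ENST00000542393 (left) and of ASCC2 summed over all isoforms (right) in each of the 8 libraries. The isoform is at 0 in both FA_IN libraries while the gene has 759 and 1129 counts there.

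Among the other isoforms at an unadjusted p under 0.05 was ENST00000415177 of HBS1L, a protein-coding form with 6.45% of the gene's counts. Its expected counts were 273 and 239 for CA_IN, then 370 and 245 for CA_IP. Its log2 fold change was 1.07 (edgeR quasi-likelihood test, adjusted p = 0.299), and DESeq2 called it (adjusted p = 0.0112). Its share of HBS1L was 4.21 and 4.16% in CA_IN and 10.2 and 7.82% in CA_IP.

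The other genes of the pathway and of neighbouring pathways were mostly uncalled too. Of 28 partners in collision sensing and quality control, 0 were called in any comparison by edgeR's quasi-likelihood test, with 0, 4 and 2 at an unadjusted p under 0.05 in input, in the clean air pull-down and in the formaldehyde pull-down. Over all genes 3.35, 12.6 and 9.1% were, so that these counts, and those of the lists that follow, are read against that background. Their medians were -0.01, 0.08 and 0.03. The partner with the widest change in input was RNF25, a ubiquitin ligase that acts on stalled ribosomes, with 30.7 and 18.7 CPM in CA_IN and 21.3 and 15.0 CPM in FA_IN. Its groups overlapped (log2 fold change -0.45, adjusted p = 0.945).

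In decapping and 5′ to 3′ decay, the route that XRN1 ends, 1 of 19 genes was called, in the clean air pull-down, where 1.91% of all genes were. At an unadjusted p under 0.05 there were 0, 6 and 4 in the same order, where 3.35, 12.6 and 9.1% of all genes were. LSM5, a subunit of the Lsm ring that binds the 3′ end of messages bound for decapping, was lower after pull-down in clean air, with 55.1 and 60.6 CPM in CA_IN and 31.4 and 38.0 CPM in CA_IP. Its log2 fold change was -0.74 ± 0.13 SE (adjusted p = 0.0202), and after formaldehyde it was -0.60 ± 0.13 (adjusted p = 0.0710), with 59.0 and 67.6 CPM in FA_IN and 40.1 and 43.6 CPM in FA_IP. All 4 pull-down libraries lay below the 4 input libraries. In clean air LSM2 (-0.59) and LSM3 (-0.52) were also low and LSM4 (0.33) was high, none of them called. In that comparison 5 genes of the list lay above 0 and 14 below. The list's medians were 0.06 in input, -0.07 in the clean air pull-down and -0.10 in the formaldehyde pull-down.

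Of 15 genes of the SKI complex and the cytoplasmic exosome, which degrade messages from the 3′ end, 0 were called in any comparison, with 0, 1 and 2 at an unadjusted p under 0.05 in the same order and medians of -0.01, 0.03 and 0.04. EXOSC5 had the widest change in input, at 0.17 (adjusted p = 0.945 in edgeR's quasi-likelihood test). Of 14 genes of nonsense-mediated decay 0 were called, with 0, 1 and 1 at an unadjusted p under 0.05 and medians of 0.02, 0.08 and 0.02. SMG8 had the widest change in input, at -0.24 (adjusted p = 0.945).

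Of 14 targets of the integrated and ribotoxic stress responses, which collided ribosomes can set off, 0 were called, with 2, 3 and 1 at an unadjusted p under 0.05. ATF3, a stress-induced transcription factor, had 20.1 and 29.7 CPM in CA_IN and 35.1 and 36.8 CPM in FA_IN. Both formaldehyde libraries were above both clean air libraries, and the log2 fold change of 0.53 did not pass (edgeR quasi-likelihood test, adjusted p = 0.945). DDIT4, a stress-induced inhibitor of mTOR signalling, went the other way, with 102 and 90.9 CPM in CA_IN and 78.7 and 57.0 CPM in FA_IN (log2 fold change -0.51, adjusted p = 0.945). The list's medians were 0.07 in input, 0.23 in the clean air pull-down and 0.21 in the formaldehyde pull-down.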

How the data were processed

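Per the submitters' processing notes and the study's methods, reads were aligned to GRCh38 with STAR 2.6.0a and quantified with RSEM 1.2.25, without strand. The authors deposited expected counts, TPM and effective lengths per transcript for each library. Their 3 tables of DESeq2 comparisons hold log2 fold changes and p-values and were not used; those named for CA_IP and FA_IP are identical. The extraction protocol names another antibody clone than the paper.

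Expected counts were summed by gene and rounded. Genes or transcripts with at least 10 counts in at least 2 of 8 libraries were tested with edgeR 4.0.16 (TMM, quasi-likelihood, prior count 0.125) in R 4.3.3, all groups in one fit, adjusted by Benjamini-Hochberg and called under 0.05. DESeq2 1.42.0 was an alternative. The tests were tried on simulated counts. Intervals are 95%. The study calls the replicates biological; with 2 a group, p-values rest on the spread pooled over groups.

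The study split input and pull-down from the same RNA. Libraries of the same number were treated as pairs in an alternative with the RNA pool as a block, a pairing inferred from the deposited names. Replicate deviations of input and pull-down from their group means correlated across 12639 genes, which are not independent replicates (r = 0.720 in clean air, 0.570 after formaldehyde). Between the treatments, which share no RNA pool, r was 0.537 in input and 0.526 in pull-down. The correlations alone therefore do not show a shared pool. Guanine shares, lengths and isoform sequences used GENCODE 44 transcripts matched by identifier, with at least 98.3% of the counts of 8 members. Counts and TPM came from an older Ensembl release, whose models can differ under the same identifier.

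The members, the 5 lists of related genes and the markers were chosen with earlier results of these data known. Named were the members, their most abundant isoforms by TPM, isoforms called and ENST00000542393, and of each list the genes called (at most 4 per comparison) or else the gene with the widest change in input and a mean of at least 50 counts. ENST00000415177, called by DESeq2 alone, and DDIT4 were named after their values were seen.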

Additional observations from a re-analysis of the deposited data

How the results depend on the processing

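With the replicate block by RNA pool, members called in CA_IP with CA_IN rose from 0 to 5, and leaving out a clean air pool from that blocked fit, an alternative chosen after seeing the data, gave 0 to 2, while the genes called fell from 3179 to 2432 or 783 of 18242. Among isoforms, DESeq2 called 1 (ENST00000415177) for CA_IP with CA_IN and 1 (ENST00000542393) for FA_IP with FA_IN, and the absence of a filter on low counts also gave 1 for FA_IP with FA_IN; the cause was not tested. The other alternatives left members called at 0 in every comparison they cover: DESeq2 or edgeR on the 4 libraries of each of 3 comparisons (without the interaction), and in all 4 comparisons DESeq2 on 8 libraries, library size, DESeq2 size factors, no filter, a mean of 50 counts or more, a prior count of 2, effective length offsets and each library left out. The replicate block with one additive term for the file-name number also left 0 members called. The study ran the clean air and formaldehyde exposures in parallel, but no source used here states that a number marks 1 exposure run. In input the block raised the genes called from 1 to 258 (1.41% of those tested), GIGYF2 had an adjusted p of 0.0868 by edgeR's quasi-likelihood test, and the deviations of same-numbered CA_IN and FA_IN libraries correlated with r = 0.537. Of 657 values of member log2 fold changes under alternatives, 49 changed sign, 35 of them with a library left out; 0 of the 49 were called, and the widest was 0.21 from 0. Ranked by CPM in place of TPM, which does not allow for length, 8 of the 9 members changed place in the order of levels, with ASCC3 above HBS1L.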
